A study of Mus musculus with 7 samples.

Results

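Collagens are trimers of chains that wind around each other, and each chain has a gene whose symbol reads Col, a number, a, and a second number. Probes for 44 such genes were found on the array, through the accession of the probe and a RefSeq gene table, and 31 of them were kept because a probe was well above background, as the scanner software calls it, on at least 3 of the 7 arrays. They were 31 of the 23678 genes tested, of which 14720 had a symbol and the rest went by their name on the array. Of the kept chains, 9 were fibrillar, 9 belonged to basement membranes and 13 to other classes. The classes are textbook ones and used no measured value.

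RNA of the heart apex was measured in 7 male C57Bl/6 mice aged 3 months, with 1 single-colour Agilent array per mouse. The 3 mice with the AKT1+AKT2 double knockout (DKO) were homozygous for floxed Akt1 and Akt2 and heterozygous for MHC-mercremer, a recombinase that tamoxifen activates, driven in cardiomyocytes by the alpha myosin heavy chain promoter. The 4 control mice were heterozygous for MHC-mercremer and had no floxed alleles named in the labels. Hydroxytamoxifen was given to all 7 mice, controls included, at 500 µg daily over 5 days, and hearts were taken 10 days after induction with no other treatment. The comparison asks how transcripts of the heart differ once both kinases are deleted in cardiomyocytes. Fibroblasts, vessels and other cells of the apex keep their Akt genes in this model, and their RNA is part of every value, so that fewer cells of a type and less RNA per cell cannot be told apart.

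Fibrillar collagens form the tensile fibrils of the interstitium, in which types I and III predominate in heart and type V helps fibrils to start. Type IV builds the network of basement membranes around cardiomyocytes and vessels, and types XV and XVIII are proteoglycans of the same zone. Cardiac fibroblasts make most fibrillar collagen, and vascular cells make much of the type IV. Rising type I and type III transcripts are a classical sign of cardiac fibrosis.

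Promoter windows are shown for 2 type IV chains whose genes share one and for chains of types I and III. The windows are from RefSeq on GRCm38.p6, hold 300 bases each, and run 5′ to 3′ on the gene's own strand from 250 bases before the start to 50 after it. Col4a1 (chr8:11312777-11313076, minus strand) and Col4a2 (chr8:11312555-11312854, plus strand) encode the chains of the common type IV trimer and lie head to head. Their windows overlap by 78 bases, which are in capitals. In Col1a2 (chr6:4505368-4505667, plus strand) and Col3a1 (chr1:45311288-45311587, plus strand) capitals mark CCAAT or its reverse complement ATTGG.
Col4a1: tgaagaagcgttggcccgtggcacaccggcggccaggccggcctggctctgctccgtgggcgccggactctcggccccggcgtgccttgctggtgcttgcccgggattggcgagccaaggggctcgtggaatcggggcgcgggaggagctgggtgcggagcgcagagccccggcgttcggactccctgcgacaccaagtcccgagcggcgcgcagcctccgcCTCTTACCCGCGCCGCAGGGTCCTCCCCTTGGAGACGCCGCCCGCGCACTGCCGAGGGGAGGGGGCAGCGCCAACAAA
Col4a2: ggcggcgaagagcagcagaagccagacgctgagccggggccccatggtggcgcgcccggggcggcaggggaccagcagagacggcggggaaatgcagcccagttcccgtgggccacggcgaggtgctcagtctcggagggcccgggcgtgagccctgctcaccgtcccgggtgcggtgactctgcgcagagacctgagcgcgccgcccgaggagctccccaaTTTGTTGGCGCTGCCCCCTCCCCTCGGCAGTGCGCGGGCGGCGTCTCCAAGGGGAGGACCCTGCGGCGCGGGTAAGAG
Col1a2: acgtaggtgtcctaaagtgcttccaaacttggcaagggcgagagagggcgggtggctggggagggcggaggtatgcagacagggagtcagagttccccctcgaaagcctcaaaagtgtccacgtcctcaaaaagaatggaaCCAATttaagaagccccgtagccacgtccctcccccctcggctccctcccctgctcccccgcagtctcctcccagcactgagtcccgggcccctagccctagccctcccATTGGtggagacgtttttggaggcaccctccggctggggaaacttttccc
Col3a1: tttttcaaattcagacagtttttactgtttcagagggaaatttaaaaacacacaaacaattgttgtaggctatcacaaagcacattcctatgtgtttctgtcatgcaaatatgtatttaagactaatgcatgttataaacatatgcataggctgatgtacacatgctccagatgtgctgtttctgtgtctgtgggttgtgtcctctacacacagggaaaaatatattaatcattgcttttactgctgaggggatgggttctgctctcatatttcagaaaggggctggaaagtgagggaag
The Col1a2 window held 2 such matches over both strands together, a CCAAT before the start and an ATTGG that is not in the part before the start. The Col3a1 window held 0, which says only that these letters are not in this window. The share of G and C was 74.0% in the Col4a1 window, 73.7% in that of Col4a2, 61.0% in that of Col1a2 and 37.7% in that of Col3a1, beside a median of 52.7% over all windows. Windows were found for 24 of the kept chains, 26 windows in all, and each motif was searched on both strands and counted also where motifs overlapped. CCAAT was in 9 of the 26 windows, GGGCGG in 17 and TATAAA in 4. Of all 32817 windows, 37.4% held CCAAT, 35.6% GGGCGG and 13.6% TATAAA.

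All 7 arrays lay on 1 slide read in 1 scan, with 0 saturated spots and 50.9% to 55.7% of probes well above background. Values below are normalized log2 signals. The brightest Akt2 probe stood at 11.64, 11.67 and 11.61 in DKO hearts and at 13.78, 13.70, 13.61 and 13.65 in control hearts, 4.13-fold lower in DKO (adjusted p = 0.000203 by limma over probes). The brighter Akt1 probe averaged 14.65 ± 0.04 in DKO hearts and 14.48 ± 0.06 in control hearts (SD, n = 3 and 4) and did not pass (adjusted p = 0.199 by limma over probes). The second Akt1 probe averaged 8.74 ± 0.24 in DKO hearts and 8.27 ± 0.23 in control hearts (adjusted p = 0.139 by limma over probes), so that both Akt1 means were higher in the hearts labelled DKO. The 2 other Akt2 probes were 4.87-fold and 1.60-fold lower in DKO hearts (adjusted p = 0.000295 and 0.0335 by limma over probes). The position of the Akt probes on the gene was not analysed here, so that a probe beyond the deleted exons, which would check nothing, cannot be told from one within. All 12 cardiomyocyte markers were above background on every array.

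No collagen chain passed the test. With two-sided limma p-values adjusted over all genes by Benjamini-Hochberg and a threshold of 0.05, 0 of 31 chains rose and 0 fell. Of all genes 4.7% passed, 2.41% higher and 2.29% lower in DKO hearts. An unadjusted p below 0.05 was reached by 3 of 31 chains (9.68%), beside 25.5% of all genes. In 3 chains (9.68%) the DKO and control hearts did not overlap, Col18a1 and Col4a3 being higher and Col13a1 lower in DKO hearts, whereas the groups were separate in 25.7% of all genes. The DKO mean was above the control mean in 22 chains and below it in 9, while 46.9% of all genes had the higher mean in DKO hearts. The median log2 difference of the chains was 0.05, beside -0.02 over all genes, and their median size without sign was 0.09, beside 0.18 over all genes.

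**Figure D1:**
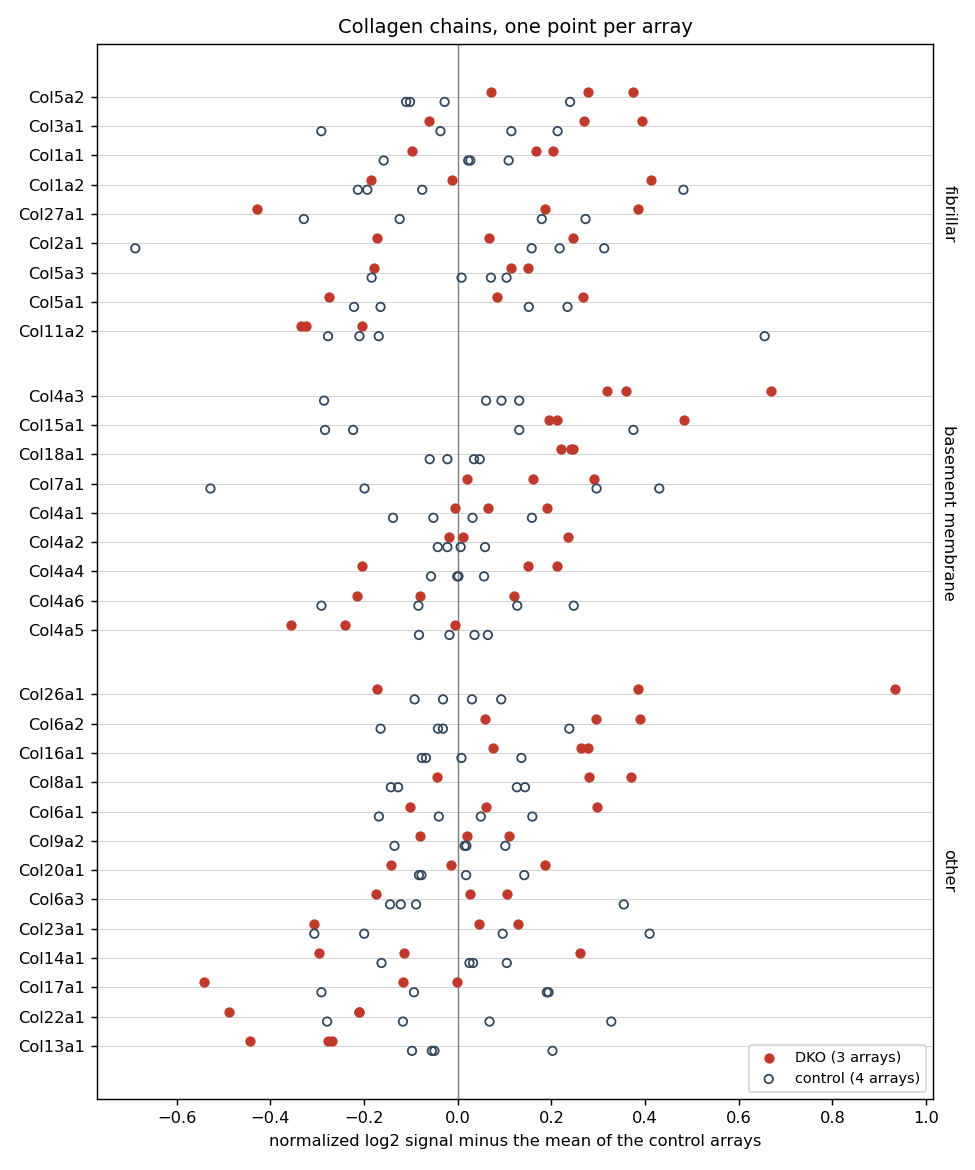
Each line is a kept collagen chain and each point an array (DKO filled, 3 arrays; control open, 4 arrays), drawn as normalized log2 signal minus the mean of the control arrays. The 2 sets of points are apart in Col4a3 and Col18a1, to the right, and in Col13a1, to the left, and overlap in all the others.

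The intervals set how large a difference these arrays would still allow. The 95% interval lay within a 1.5-fold change in either direction for 22 of 31 chains (71.0%), a share that was 61.4% over all genes. It lay within a 2-fold change for 31 of 31 chains, beside 84.3% of all genes. The median standard error was 0.14 for the chains and 0.12 over all genes on the log2 scale.

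**Figure D2:**
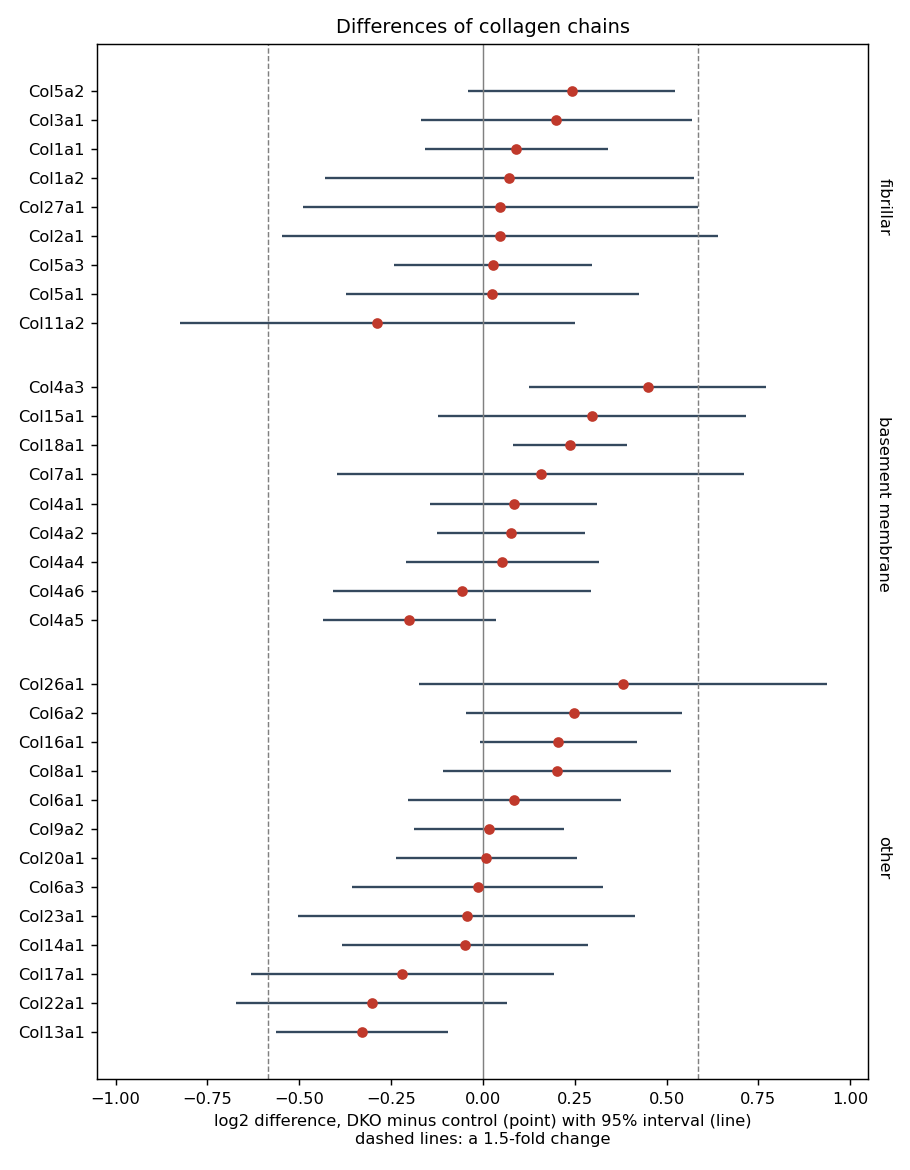
The point is the log2 difference of a chain, DKO minus control (3 and 4 arrays), the line its 95% interval from limma, and the dashed lines a 1.5-fold change. The intervals of Col4a3, Col18a1 and Col13a1 lie on 1 side of 0, and those of 22 chains lie between the dashed lines.

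The fibrillar class held no chain past the test. Of its 9 kept chains 8 had the higher mean in DKO hearts, beside 46.9% of all genes. The class median was 0.05, with differences between -0.29 and 0.24. The groups were separate in 0 of 9, beside 25.7% of all genes. The median was 0.18 without DKO replicate 1, -0.03 without DKO replicate 2 and -0.0032 without DKO replicate 3, so that its sign depended on single hearts.

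Col1a1 and Col1a2 encode the chains of type I collagen, the bulk of the fibril. Col1a1 stood at 11.65, 11.95 and 11.91 in DKO hearts and at 11.59, 11.77, 11.77 and 11.85 in control hearts. The groups overlapped, with DKO replicate 1 below 3 of the control hearts. Its log2 difference was 0.09 ± 0.11 (SE), with a 95% interval of -0.16 to 0.34 (adjusted p = 0.623, limma), and its other probe gave 0.08. Col1a2 stood at 14.12, 14.71 and 14.29 in DKO hearts and at 14.78, 14.09, 14.11 and 14.23 in control hearts. Both the highest and the lowest of these 7 values were control hearts. The difference of Col1a2 was 0.07 ± 0.21, with an interval of -0.43 to 0.57 (adjusted p = 0.859, limma).

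Col3a1 encodes the single chain of type III, which forms finer fibrils. It stood at 12.79, 13.24 and 13.12 in DKO hearts and at 12.56, 12.96, 12.81 and 13.06 in control hearts. DKO replicates 2 and 3 lay above all control hearts and DKO replicate 1 lay among them. The difference was 0.20 ± 0.16, with an interval of -0.17 to 0.57 (adjusted p = 0.46, limma). It was 0.33 without DKO replicate 1, 0.10 without DKO replicate 2, 0.10 without control replicate 1 and 0.11 with array weights.

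Type V has 3 chains on the array, and none passed. Col5a2, which lies beside Col3a1 on chromosome 1 with 0 protein-coding genes between them, stood at 6.61, 6.91 and 6.82 in DKO hearts and at 6.78, 6.44, 6.43 and 6.51 in control hearts. All DKO hearts lay above 3 of the 4 control hearts, and control replicate 1 lay among them. Its difference of 0.24 ± 0.12, with an interval of -0.04 to 0.52 (adjusted p = 0.254, limma), was the highest of the class, and it was 0.14 with normexp background correction. Col5a1 stood at 10.82, 11.36 and 11.17 in DKO hearts and at 11.24, 10.93, 10.87 and 11.33 in control hearts. Its groups overlapped over almost their whole range, and the difference was 0.03 ± 0.17, with an interval of -0.37 to 0.43 (adjusted p = 0.939, limma). Col5a3 differed by 0.03 ± 0.11.

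The other fibrillar chains are cartilage collagens or their relatives. Col2a1, the cartilage fibril chain, differed by 0.05 ± 0.25, and Col27a1 by 0.05 ± 0.23. Col11a2 had the lowest difference of the class, -0.29 ± 0.23, and its other probe gave -0.08. The probes of Col11a2 and Col27a1 were above background on 2 DKO arrays and 4 control arrays each, so that their values lie at the edge of what the arrays measured.

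Basement membrane chains had a class median of 0.08. Of the 9, all kept, 7 had the higher mean in DKO hearts, beside 46.9% of all genes, and 0 passed the test. The groups were separate in 2 of 9, which is 22.2% beside 25.7% of all genes.

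Col18a1, whose protein releases the fragment endostatin, had the smallest unadjusted p of the chains. It stood at 9.93, 9.94 and 9.91 in DKO hearts and at 9.63, 9.67, 9.72 and 9.74 in control hearts. The DKO hearts lay close together and above every control heart. The difference was 0.24 ± 0.07, a ratio of 1.18, with an interval of 0.08 to 0.39 (adjusted p = 0.0893, limma). Row 1 of the slide held 1 DKO array and row 2 held 1 control array, so that each difference within a row has a single array on 1 side and no test. For Col18a1 it was 0.21 and 0.27 within the 2 rows, and 0.22 to 0.25 with each array left out in turn. In a chain with separate groups, as here and in Col4a3 and Col13a1 below, such differences cannot change sign.

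Type IV chains form 3 pairs of genes that lie next to each other. For Col4a1 the DKO hearts stood at 13.47, 13.54 and 13.67 and the control hearts at 13.34, 13.43, 13.51 and 13.64. For its head-to-head partner Col4a2 the DKO hearts stood at 13.04, 13.01 and 13.26 and the control hearts at 12.98, 13.03, 13.08 and 13.00. In both genes the groups overlapped and the highest value was DKO replicate 3. The pair whose windows are printed above differed by 0.08 ± 0.10, with an interval of -0.14 to 0.31, and by 0.08 ± 0.09 (adjusted p = 0.618 and 0.607, limma).

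Col4a3 and Col4a4, on chromosome 1, encode chains of the specialised type IV trimer best known from the kidney's filter. Col4a3 stood at 5.32, 5.63 and 5.28 in DKO hearts and at 5.02, 5.06, 5.09 and 4.68 in control hearts. Every DKO heart lay above every control heart, and control replicate 4 was the lowest. The probe was above background on all 7 arrays, though its signals were about as low as those of Col11a2. The difference was 0.45 ± 0.14, a ratio of 1.37, with an interval of 0.13 to 0.77 (adjusted p = 0.107, limma), the largest of the 31 chains. It was 0.35 and 0.42 within the 2 slide rows and 0.34 to 0.51 with each array left out in turn. Processing moved it further, to 0.18 with normexp (adjusted p = 0.496, limma) and 0.61 with quantile normalization (adjusted p = 0.0563, limma). Its neighbour Col4a4 differed by 0.05 ± 0.11, with overlapping groups. A test of the difference between these neighbours was not run.

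Col4a5 and Col4a6 are neighbours on chromosome X, and Col4a5 joins Col4a3 and Col4a4 in the same trimer. Col4a5 stood at 8.98, 9.33 and 9.09 in DKO hearts and at 9.32, 9.40, 9.25 and 9.37 in control hearts. DKO replicates 1 and 3 lay below all control hearts, and DKO replicate 2 lay among them. The difference was -0.20 ± 0.10, with an interval of -0.44 to 0.03 (adjusted p = 0.256, limma). Its other probe gave 0.23 ± 0.31, so the sign depended on the probe, and without DKO replicate 1 the difference was -0.12. Col4a6 differed by -0.06 ± 0.15.

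Col15a1, the type XV chain of the capillary and muscle basement membrane zone, stood at 6.39, 6.37 and 6.66 in DKO hearts and at 5.95, 5.89, 6.31 and 6.55 in control hearts. The DKO hearts lay above 3 of the 4 control hearts, and control replicate 4 lay among them. The difference was 0.30 ± 0.18, with an interval of -0.12 to 0.72 (adjusted p = 0.337, limma), and the other probe gave 0.37 ± 0.34. It was 0.11 with normexp and 0.17 with array weights. Col7a1, the chain of anchoring fibrils in skin, differed by 0.16 ± 0.23 with overlapping groups.

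The remaining 13 kept chains had a class median of 0.01, with 7 higher and 6 lower in DKO hearts and 0 past the test. Type VI collagen, a beaded filament between basement membrane and fibrils, is built from Col6a1, Col6a2 and Col6a3. Col6a2 stood at 10.67, 10.91 and 11.001 in DKO hearts and at 10.45, 10.57, 10.58 and 10.85 in control hearts. DKO replicates 2 and 3 lay above all control hearts and DKO replicate 1 below control replicate 4. Its difference was 0.25 ± 0.12, with an interval of -0.05 to 0.54 (adjusted p = 0.262, limma). Col6a1, its neighbour on chromosome 10, stood at 12.88, 13.04 and 13.28 in DKO hearts and at 12.81, 12.94, 13.03 and 13.14 in control hearts. The difference of Col6a1 was 0.09 ± 0.12, with an interval of -0.20 to 0.37 (adjusted p = 0.693, limma), and its groups overlapped. Col6a3 stood at 11.17, 11.37 and 11.45 in DKO hearts and at 11.20, 11.26, 11.22 and 11.70 in control hearts. Control replicate 4 was the highest of these, and the difference was -0.01 ± 0.14, with an interval of -0.36 to 0.33 (adjusted p = 0.961, limma).

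Col8a1, a short-chain network collagen of vessels and of the endothelial layer, stood at 12.31, 12.40 and 11.98 in DKO hearts and at 12.17, 11.90, 12.15 and 11.88 in control hearts. DKO replicates 1 and 2 were above all control hearts, and DKO replicate 3 was among them. The difference was 0.20 ± 0.13, with an interval of -0.11 to 0.51 (adjusted p = 0.376, limma). It was 0.12 without DKO replicate 2 and 0.32 without DKO replicate 3.

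Of the class named fibril-associated collagens with interrupted triple helices, 5 chains were kept. Col16a1 stood at 10.41, 10.60 and 10.62 in DKO hearts and at 10.26, 10.35, 10.27 and 10.47 in control hearts. DKO replicates 2 and 3 lay above all control hearts, and DKO replicate 1 lay below control replicate 4. Its difference was 0.21 ± 0.09, with an interval of -0.01 to 0.42 (adjusted p = 0.208, limma). Col22a1, known from tissue junctions such as that of muscle and tendon, stood at 4.55, 4.83 and 4.82 in DKO hearts and at 5.10, 4.76, 5.36 and 4.92 in control hearts. Its groups overlapped through control replicate 2, and its probe was above background on 2 DKO arrays and 3 control arrays. The difference was -0.30 ± 0.16, with an interval of -0.67 to 0.07 (adjusted p = 0.272, limma), and the other probe gave -0.39 ± 0.19. It was -0.15 with quantile normalization, -0.15 in the authors' values, -0.0029 with normexp, -0.19 with the slide row as a block and -0.19 without control replicate 3. Col9a2, Col14a1 and Col20a1 differed by 0.02, -0.05 and 0.01.

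Col13a1, a collagen that spans the cell membrane and is known from neuromuscular junctions, was the single chain with all DKO hearts below all control hearts. It stood at 5.44, 5.45 and 5.27 in DKO hearts and at 5.67, 5.92, 5.66 and 5.62 in control hearts. Control replicate 2 was the highest, and the other 3 control hearts lay close together. The probe was above background on all 7 arrays, though its signals lay in the range of the dim Col11a2 probe. The difference was -0.33 ± 0.10, with an interval of -0.56 to -0.10 (adjusted p = 0.104, limma). It was -0.37 and -0.48 within the 2 slide rows, and -0.36 to -0.26 with each array left out in turn. It was smaller under other processing, at -0.17 with quantile normalization, -0.17 in the authors' values and -0.14 with normexp (adjusted p = 0.47, 0.468 and 0.468, limma). The other membrane-spanning chains kept were Col17a1, a hemidesmosome collagen, at -0.22 ± 0.18 and Col23a1 at -0.04 ± 0.19, whose probe was above background on 2 DKO arrays and 3 control arrays.

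Col26a1, a secreted chain outside the classes above, stood at 5.60, 6.70 and 6.15 in DKO hearts and at 5.68, 5.80, 5.74 and 5.86 in control hearts. DKO replicate 1 lay below all control hearts and the other 2 DKO hearts above them. The difference was 0.38 ± 0.24, with an interval of -0.17 to 0.94 (adjusted p = 0.349, limma), and it was 0.66 without DKO replicate 1 and 0.11 without DKO replicate 2. Its other probe gave -0.14 ± 0.30, so its sign depended on the probe, and normexp gave 0.16.

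Of the 44 chains, 13 were not kept. They were Col11a1 and Col24a1 of the fibrillar class, and Col6a4, Col6a5, Col6a6, Col8a2, Col10a1, Col9a1, Col9a3, Col12a1, Col19a1, Col25a1 and Col28a1 of the others. All 9 basement membrane chains were kept. Just inside the limit of 3 arrays, 2 chains were above background on 5 arrays (Col22a1 and Col23a1) and 2 on 6 (Col11a2 and Col27a1), and the remaining 27 were on all 7. Just outside it, 4 chains reached at most 1 array (Col8a2, Col9a1, Col19a1 and Col25a1) and 9 reached 0. For these 13 the arrays give no comparison.

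The hearts of either group did not stand alike across the chains. DKO replicate 1 was the lowest DKO array in 19 of 31 chains, and DKO replicate 2 the highest in 20. Control replicate 1 was the lowest control array in 16 of 31 chains, and control replicate 4 the highest in 14. Over the fibrillar and type VI chains together, a set put together after their values were seen, DKO replicate 1 was the lowest DKO array in 11 of 12. Control replicate 4 was the highest control array in 8 of these 12. The same counts over all genes were not made. Relative to the control mean of each chain, the fibrillar median was -0.18, 0.27 and 0.17 in DKO replicates 1, 2 and 3, and 0.15, -0.12, -0.11 and 0.11 in control replicates 1 to 4. The groups overlapped, with DKO replicate 1 the lowest of all 7. The basement membrane median was 0.01, 0.16 and 0.19 in DKO hearts and -0.06, -0.02, 0.06 and 0.04 in control hearts, with 2 DKO hearts above all controls. That of the other classes was -0.12, 0.06 and 0.02 in DKO hearts and -0.13, 0.01, 0.01 and 0.02 in control hearts.

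**Figure D3:**
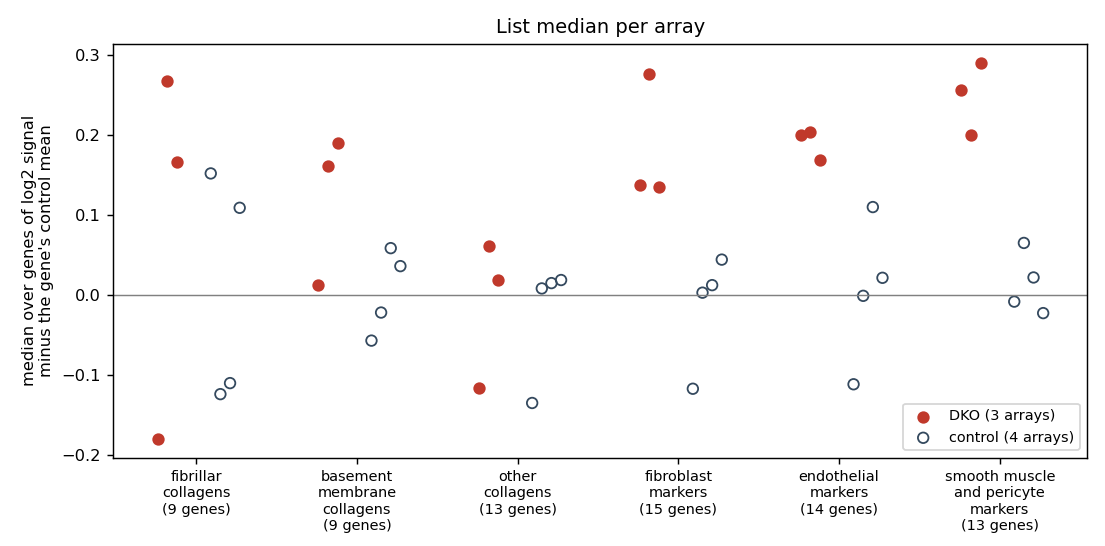
Each point is an array, and the axis gives the median over the genes of a list of the log2 signal minus the gene's control mean (DKO filled, 3 arrays; control open, 4 arrays). The DKO arrays lie between -0.18 and 0.27 for fibrillar chains, overlapping the controls. For the 3 marker lists drawn here, a part of the marker lists read, all DKO arrays lie above all controls.

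Markers of the cells that make collagen were set beside these values. Of 15 fibroblast markers, some of which (Dpt, Dcn, Lum, Ddr2, Pdgfra and Tcf21) are also in lists below, all above background on every array, 14 had the higher mean in DKO hearts, 7 had separate groups (46.7%, beside 25.7% of all genes) and 0 passed the test. Their list median was 0.22, with array medians of 0.14, 0.28 and 0.13 in DKO hearts and -0.12, 0.0028, 0.01 and 0.04 in control hearts. Their summed signal lay at 17.75 to 17.90 in DKO hearts and at 17.58 to 17.70 in control hearts on the log2 scale. The endothelial list had 14 of 14 higher, 5 with separate groups, a median of 0.20, and a summed signal of 17.72 to 17.76 in DKO hearts against 17.45 to 17.63 in control hearts. Smooth muscle and pericyte markers had a median of 0.24, with 10 of 13 higher, 3 lower and 9 separate, and a summed signal of 16.76 to 16.88 in DKO hearts against 16.64 to 16.84 in control hearts. Among them Myh11 rose by 0.63 (adjusted p = 0.0487 by limma, in 0 of 7 leave-one-out fits). Its other probes gave 0.38 and 0.25 and did not pass (adjusted p = 0.143 and 0.448 by limma over probes). Acta2 differed by -0.41 (adjusted p = 0.128, limma) and Abcc9, with separate groups, by -0.16, and neither passed. Of 12 markers of activated fibroblasts, Cthrc1 and Tnc were not kept, and the 10 others had a median of 0.01, with 5 higher and 5 lower. Of these, 2 of the higher ones, Thbs4 and Lox, passed, and Acta2, which is also in this list, had the lowest difference. The summed signal of this list was 15.09 to 15.36 in DKO hearts against 15.34 to 15.76 in control hearts. The array medians of all DKO hearts were above those of all controls also in the endocardial, Schwann cell and adipocyte lists. These lists had medians of 0.31, 0.30 and 0.30 over 6, 7 and 3 genes. Of the 8 adipocyte markers listed, Adipoq, Plin1, Cidec, Retn and Ucp1 were not kept. The adipocyte median is the value of Fabp4, which is also in the endothelial list. Lep differed by -0.07 and Cfd by 1.04, both with overlapping groups. Vwf is in both the endothelial and the endocardial list. In the remaining marker lists the array medians of the groups overlapped. The 12 cardiomyocyte markers had a median of -0.04, with 5 higher, 7 lower and 4 separate. The part of cell makeup in the collagen values was not tested.

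The genes that make, bind or break down collagen were read from 8 lists. Of 142 genes listed 131 were tested, and 8 rose and 1 fell, which is 6.87% beside 4.7% of all genes. The lists were chosen with earlier results of these data known, so that no excess can be read from these shares. The median over the 131 was 0.05.

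Enzymes that hydroxylate and glycosylate the chain while it is made had 1 of 13 members past the test. P4hb, the protein disulfide isomerase that is a subunit of prolyl 4-hydroxylase, stood at 12.63, 12.79 and 12.76 in DKO hearts and at 11.99, 12.18, 12.28 and 12.23 in control hearts. It rose by 0.55 ± 0.09 (adjusted p = 0.0278, limma) and passed in 2 of 7 leave-one-out fits, with an adjusted p of 0.0923 without DKO replicate 2. Colgalt1, which adds galactose to hydroxylysine, differed by 0.27, P3h4 by -0.28 and Plod3, a lysyl hydroxylase, by 0.24, with separate groups and adjusted p of 0.0673, 0.0801 and 0.139 (limma). The groups were separate in 5 of the 13 members (38.5%), beside 25.7% of all genes. Of 14 folding and export genes 0 passed, with a median of -0.09. The smallest p of that list was that of Mia2, which helps to load large cargo for export, at -0.21 (adjusted p = 0.108, limma).

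Of 13 processing and crosslinking genes, Lox passed. Lox, the enzyme that crosslinks collagen and elastin, stood at 7.33, 7.58 and 7.58 in DKO hearts and at 6.84, 7.02, 6.95 and 6.99 in control hearts. It rose by 0.55 ± 0.09 (adjusted p = 0.028, limma) and passed in 1 of 7 leave-one-out fits, with an adjusted p of 0.0923 without DKO replicate 2.

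Among 17 genes of collagen breakdown and its inhibitors, 2 rose. Ctsl, a lysosomal protease with many substrates besides collagen, stood at 14.50, 14.66 and 14.25 in DKO hearts and at 13.60, 13.49, 13.55 and 13.39 in control hearts. It rose by 0.96 ± 0.11 (adjusted p = 0.0106, limma) and passed in 6 of 7 leave-one-out fits, the exception being that without DKO replicate 1 (adjusted p = 0.0536, limma). Mmp19, a matrix metalloproteinase, rose by 0.35 ± 0.07 (adjusted p = 0.0359, limma) and passed in 0 of 7, with an adjusted p of 0.108 without DKO replicate 3. Mmp14, the membrane-bound collagenase, differed by 0.35 (adjusted p = 0.136, limma).

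Of 11 collagen receptors, 1 fell. Itga10, an integrin subunit that binds collagen, stood at 6.57, 6.40 and 7.02 in DKO hearts and at 7.81, 7.38, 8.04 and 7.92 in control hearts. It fell by 1.12 ± 0.20 on the log2 scale (adjusted p = 0.0321, limma), yet its other probe gave 0.19 ± 0.09 (adjusted p = 0.239, limma over probes), and the mean of both probes did not pass (adjusted p = 0.0739, limma). It passed in 2 of 7 leave-one-out fits, with an adjusted p of 0.106 without DKO replicate 1. The receptor kinases Ddr2 and Ddr1, which collagen activates, differed by 0.21 and 0.19 and did not pass.

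Proteins that sit on fibrils or in basement membranes gave 1 gene past the test in each list. Thbs4, a thrombospondin that binds collagen, rose by 0.69 ± 0.11 (adjusted p = 0.0205, limma), 1 of 20 fibril-associated genes. It stood at 9.80, 9.64 and 9.50 in DKO hearts and at 8.997, 9.11, 8.87 and 8.84 in control hearts. It passed in 3 of 7 leave-one-out fits, and without DKO replicate 1 its adjusted p was 0.0756 (limma). Of 16 partners of basement membrane collagens 1 rose and 0 fell, with a list median of -0.09. The laminin chains Lamb2 and Lamc1, which are common in vessels and muscle, differed by 0.15 and 0.16, and Dag1, the laminin receptor dystroglycan, by -0.23, and these did not pass.

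Of 27 regulators of collagen transcription 2 rose. Ccn2, the matricellular protein also called connective tissue growth factor, stood at 14.52, 14.56 and 14.32 in DKO hearts and at 12.22, 12.48, 12.74 and 12.46 in control hearts, and rose by 1.99 ± 0.13 (adjusted p = 0.00312, limma), in 7 of 7 leave-one-out fits. Scx, a transcription factor of tendon that can activate Col1a2, stood at 12.33, 12.71 and 12.15 in DKO hearts and at 11.19, 10.74, 11.20 and 10.86 in control hearts. It rose by 1.40 ± 0.17 (adjusted p = 0.0122, limma), in 5 of 7 leave-one-out fits, with an adjusted p of 0.0546 without DKO replicate 1. Beside them, Col1a1 and Col1a2 differed by 0.09 and 0.07, as given above. Smad3 and Tgfb2, of the TGF-beta pathway, differed by 0.33 and 0.37 with separate groups (adjusted p = 0.102 for both, limma). Smad2, of the same pathway, differed by -0.19, also with separate groups (adjusted p = 0.266, limma). The groups were separate in 7 of the 27 regulators (25.9%), beside 25.7% of all genes.

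**Figure D4:**
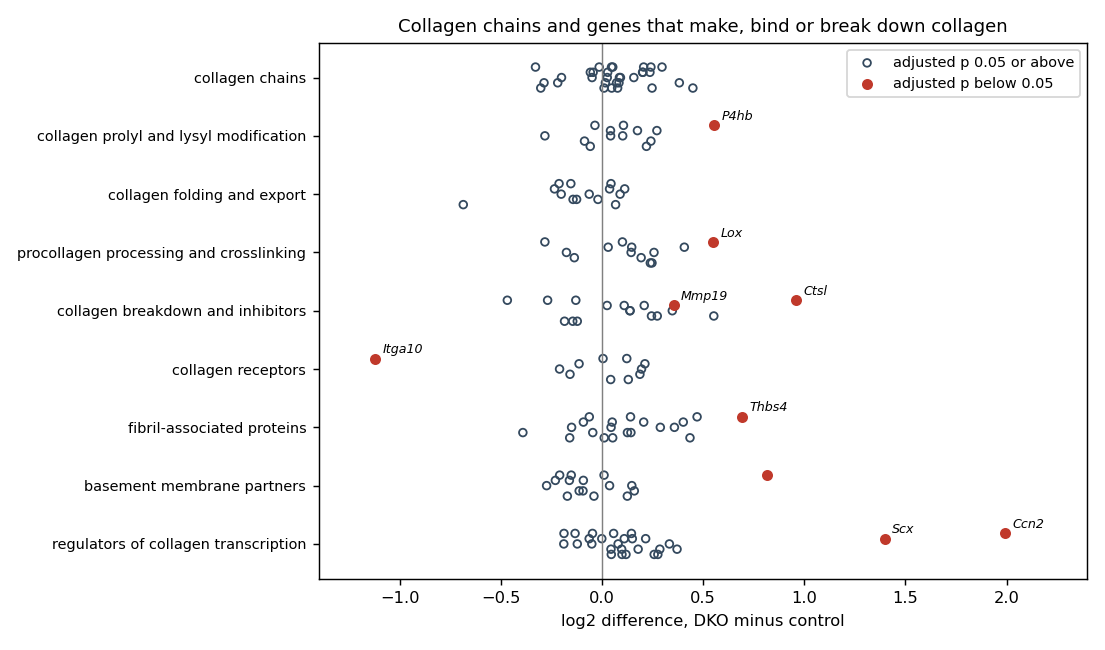
Each point is a gene, placed by its log2 difference (DKO minus control, 3 and 4 arrays) and list, and filled where the adjusted p by limma was below 0.05. Filled points, of which 8 are named, are 8 genes to the right, led by Ccn2 at 1.99, and Itga10 at -1.12, while the 31 collagen chains lie between -0.33 and 0.45 with 0 filled.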

How the data were processed

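Per the file headers, images were quantified with Feature Extraction 12.0.3.1 (protocol GE1_1200_Jun14, design 074809, probe positions on mm9). The deposited array files give, for each of 62976 spots, flags and the processed signal, a linear intensity. The authors' deposited table is on a log2 scale and covers 56745 probes. Compared with the scanner files it matched quantile-normalized, probe-centred values (r of at least 0.9997, column medians 0), with the software not given in the sources used here.

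Control spots were left out, and the log2 signal of an array was reduced by its 75th percentile over the other spots. The mean percentile (9.14) was added as a constant. Outlier spots were left out after this scaling. Probes were named through accessions and a RefSeq gene table (32994 of 56605 matched), and a probe without a match went by its name on the array. Probes well above background on at least 3 arrays were kept (30466), and the kept probe with the highest mean stood for its gene. This gave 23678 genes, of which 14720 had a symbol. Each unmatched name counts as a gene in the values over all genes. R 4.3.3 with limma 3.58.1 (functions lmFit and eBayes, with a group term alone, degrees of freedom 5 residual and 2.11 prior) gave two-sided p-values, Benjamini-Hochberg adjusted over all genes; single probes were adjusted over probes. Replicates were separate mice, and precision is limited by there being 3 and 4 of them. The fit was tested on simulated data.

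The chains, gene lists and tests were chosen with earlier results of these data known. Named were the 10 chains with the smallest p, the common heart collagens, chains with separate groups, list members past the threshold or else up to 4 with the smallest p. Alternatives were quantile normalization, another centring, normexp (offset 50) on the median signal because the files hold no mean signal, other filters, the authors' table, other probes or their mean, trended robust variances, weighted arrays, a block for slide row or for replicate number, and leaving out each array. In the counts, 1 list gene past the threshold is included but not reported here by name. A planned description of protein repeats was not made, as no protein table was used here.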

Additional observations from a re-analysis of the deposited data

Results flagged for a closer look

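In 5 of 43 control groups checked, 1 of the 4 control arrays lay far from the other 3; chance gives about 1 in 20 such groups. Col13a1 stood at 5.92 in control replicate 2 and at 5.62 to 5.67 in the others. Col4a3 stood at 4.68 in control replicate 4 and at 5.02 to 5.09 in the others. Col6a3 stood at 11.70 in control replicate 4 and at 11.20 to 11.26 in the others. In control replicate 1, Col2a1 stood at 7.46, against 8.30 to 8.46 in the others, and Col11a2 at 6.00, against 5.07 to 5.17. Groups of 3 DKO arrays were not checked this way.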

How the results depend on the processing

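In all 18 other settings 0 collagen chains passed. For the 19 chains given with values on every array, 329 of 347 values under other settings had the same sign as reported and 18 the opposite one, and 11 chains never changed sign. The opposite signs were Col1a2 at -0.043 and Col4a1 at -0.0051 under quantile normalization, Col5a1 at -0.011 with array weights, Col4a5 at 0.013 as the mean of its probes and 0.23 for its other probe, Col26a1 at -0.14 for its other probe, and Col6a3 at 0.052 with normexp, 0.047 with the slide row as a block and 0.10 with the replicate block. With each array left out in turn the ranges were -0.10 to 0.23 for Col1a2, -0.10 to 0.18 for Col5a1, -0.0031 to 0.12 for Col4a2, -0.020 to 0.18 for Col6a1 and -0.074 to 0.10 for Col6a3. With an array left out the class medians ran between -0.03 and 0.18 for fibrillar chains, 0.03 and 0.13 for basement membrane chains and -0.03 and 0.07 for the others. Quantile normalization and the authors' values gave medians of 0.18 and 0.18 for basement membrane chains and 0.10 and 0.10 for the other classes, against 0.08 and 0.01. The count over all genes, 1114 as reported, was 549 with normexp, 121 without a filter, 2028 with trended robust variances, 1680 with array weights, 288 with the slide row as a block and 160 (without DKO replicate 1) to 1127 with an array left out. The count of list genes, 9 as reported, was 1 without a filter, 5 with the slide row and 1 (without DKO replicate 1) to 8 with an array left out. Replicate numbers did not pair the hearts: deviations of same-numbered arrays correlated at 0.129, 0.00691 and 0.0325, and not every DKO array correlated best with its own number. With the replicate block the counts were 1 over all genes and 0 in the lists, and Akt2 stood at -2.06 (adjusted p = 0.111, limma). That fit leaves fewer residual degrees of freedom than the group term alone, and 1 control heart has no DKO partner in it. The causes were not tested. Dim probes limit the chains above background on fewer than 7 arrays. Col4a3 and Col13a1 were above background on all 7, yet their signals were about as low as those of Col11a2.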
